A study of Drosophila melanogaster with 24 samples.

Results

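The genital disc of Drosophila melanogaster females, the imaginal primordium of the internal and external genitalia, was compared between the pupa and the prepupa. The comparison set all 4 arrays of P20 female discs, taken at about 20 h after puparium formation (APF), against all 4 arrays of P6 female discs, taken at about 6 h APF. These are 8 of the 24 arrays of a study that also measured L3 discs of wandering larvae and male discs at each stage, as 6 combinations of stage and sex, each on 4 arrays labelled as biological replicates. All genes with a probe set of their own entered the comparison, 11982 genes on 13647 probe sets, and no measured value chose them.

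Every animal, of either stage and sex, had the genotype esgGAL4.B, UAS-GFP.nls/CyO, in which a GAL4 driver of the escargot gene puts nuclear GFP into all imaginal discs over the balancer chromosome CyO. Larvae were sorted by sex and reared at 25 °C, and each animal was watched to the white prepupa. P6 discs were dissected when the puparial air bubble was largest, and P20 discs when GFP first showed in the eye. Each array was hybridised with cDNA amplified from 20 ng of total RNA of dissected discs, and the sources used here do not give the number of discs per array.

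Metamorphosis is driven by pulses of the steroid ecdysone, which binds the nuclear receptor EcR with its partner Ultraspiracle and switches on a cascade of transcription factors. After the late larval pulse the titre falls and prepupal regulators such as ftz-f1 become active. In the prepupa, disc epithelia evert and secrete the pupal cuticle. A later pulse in the pupa is accompanied by adult differentiation, under regulators such as Eip93F. In the female genital disc the epithelium that forms the uterus, oviducts, spermathecae and external plates is joined by mesodermal cells, the precursors of muscle, and by tracheal cells.

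Values are log2 RMA units (robust multi-array average), on which a step of 1 is a 2-fold change, and differences are P20 minus P6. Over the 8 arrays they ran from 2.04 to 14.02, and the median probe set of an array lay between 6.00 and 6.17 at P20 and between 6.06 and 6.24 at P6. Replicates correlated at 0.988 to 0.994 at P20 and at 0.99 to 0.994 at P6, and arrays of different stages at 0.941 to 0.953. The files carry no detection calls, so a low value cannot be read as absence, and levels of different genes are not comparable because each probe set has its own affinity. All 5 measured markers of disc epithelium (esg, en, shg, crb and Dll) had means over 5 at both stages, and their summed level was 11.06 to 11.46 on P20 arrays and 11.62 to 11.83 on P6 arrays. Of the 5, crb and Dll were higher at P20 past the threshold and esg was lower, while en and shg did not pass. The 7 fat body markers summed to 13.64 to 14.33 on P20 arrays and 14.10 to 14.70 on P6 arrays, with Yp1, Yp2 and Yp3 under 5 and 0 of 7 past the threshold, whereas 9 of 10 salivary gland markers were under 5.

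From P6 to P20 more than 1 in 4 genes changed, with 1689 higher at P20 and 1430 lower at a Benjamini-Hochberg adjusted p under 0.05 in limma. Of all genes tested, 26.0% passed, 14.1% in the higher and 11.9% in the lower direction, and these shares are the background for every gene group described here. By 2-fold or more 517 genes were higher and 625 lower, by 8-fold or more 69 and 164, and by 32-fold or more 26 and 53. Large decreases thus outnumbered large increases, while the median change over all genes was 0.04. The 4 arrays of each stage did not overlap, with P20 above P6, for 2151 genes (18.0%), and with P20 below P6 for 1726 (14.4%). In bulk tissue, fewer cells of a type and less RNA per cell cannot be told apart.

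**Figure D1:**
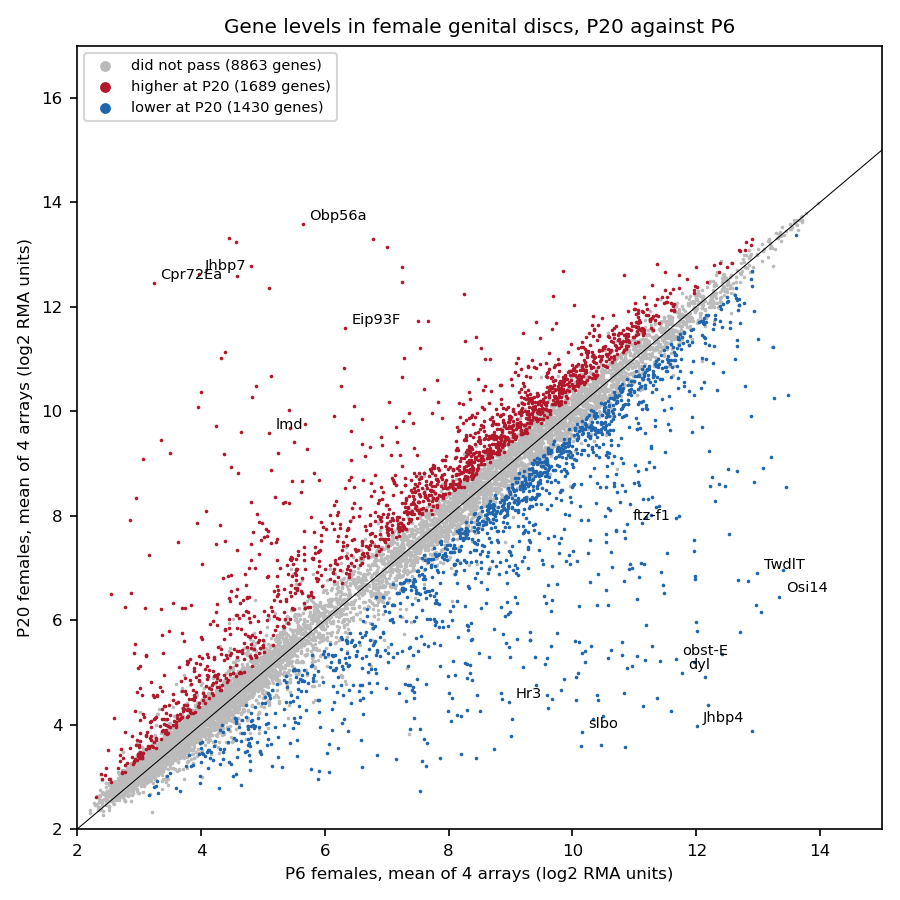
Mean level of each of the 11982 genes in P20 female discs (vertical axis) against P6 female discs (horizontal axis), in log2 RMA units, 4 arrays per stage. Red points are the 1689 genes higher at P20, blue points the 1430 lower at P20 and grey points those that did not pass; the line marks equal levels. The blue cloud extends further from the line than the red, with 53 genes lower and 26 higher by 32-fold or more.

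The larval arrays placed many of the large decreases as levels raised at P6 in comparison with both other stages. Of the 625 genes lower by 2-fold or more, 472 (75.5%) had an L3 mean nearer to the P20 than to the P6 mean. Of the 517 genes higher by 2-fold or more, 190 (36.8%) had an L3 mean nearer to P20, and 301 had an L3 mean within 1 log2 unit of P6. These are descriptions of means, since the P6 arrays enter both steps.

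The hormone regulators moved in both directions. Eip93F, the ecdysone-responsive helix-turn-helix factor that specifies adult fates, read 11.40, 11.87, 11.67 and 11.45 on the P20 arrays, against 6.01, 6.21, 5.93 and 7.16 on the P6 arrays. Every P20 array lay more than 4 log2 units above the highest P6 array, and the difference was 5.27 ± 0.28 (SE), adjusted p = 1.21e-12. A second probe set of Eip93F, of lower signal, rose by 1.18 (adjusted p = 3.19e-05). The receptor gene EcR read 10.67, 10.79, 10.93 and 10.61 at P20, against 9.59, 9.74, 9.47 and 9.60 at P6. Its groups did not overlap, and the difference was 1.15 ± 0.15 (SE), adjusted p = 2.57e-06. For usp, which encodes the receptor's partner, the means were 11.02 ± 0.25 at P20 and 10.71 ± 0.11 at P6 (SD, n = 4 each), and the difference of 0.32 did not pass (adjusted p = 0.0864), but passed without P20 replicate 4 (adjusted p = 0.0312).

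The prepupal regulators were lower at P20. Hr3, the nuclear receptor that activates ftz-f1, read 4.75, 4.35, 4.05 and 4.57 at P20, against 8.91, 8.44, 9.20 and 9.35 at P6. The groups were wide apart, with a difference of -4.55 ± 0.53 (SE), adjusted p = 5.75e-07. ftz-f1, the nuclear receptor that gives prepupal tissue its competence for the next pulse, read 8.15, 8.26, 7.85 and 7.11 at P20, against 10.87, 10.96, 10.80 and 10.87 at P6. All P20 values lay below all P6 values, and the difference was -3.03 ± 0.27 (SE), adjusted p = 8.36e-09, although the other ftz-f1 probe set gave -0.57 and did not pass (adjusted p = 0.476). The L3 means were 7.27 for Hr3 and 6.36 for ftz-f1, both below their P6 means.

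The zinc finger gene br, whose proteins specify the pupal stage, fell by 1.03 (adjusted p = 1.7e-05), with means of 11.68 ± 0.32 at P20 and 12.71 ± 0.09 at P6. Of its 4 other probe sets, 2 fell by 1.10 and 1.09, and those giving -0.45 (adjusted p = 0.0587) and -0.01 (adjusted p = 0.988) did not pass. Among the nuclear receptor genes, Hr78 rose by 0.58 (adjusted p = 0.00235). Hr39, needed for spermathecal glands, rose by 0.71 (adjusted p = 0.00664) on the probe set used, while its 3 other probe sets gave 0.26, 0.47 and -0.34 and did not pass, and the mean of the 4 gave 0.27 (adjusted p = 0.38). Oatp74D, which encodes an importer of ecdysone, rose by 0.68 (adjusted p = 0.00102). Over the 20 measured ecdysone response regulators, 5 rose, 3 fell and 12 did not pass, and Eip74EF and Eip75B, which have no probe set of their own, were not analysed here. Among the 12 were Blimp-1, a repressor of ftz-f1 (0.09, adjusted p = 0.892), and Kr-h1, the effector of juvenile hormone (-0.49, adjusted p = 0.303). The change of Kr-h1 passed in the fit to the 8 female arrays alone (adjusted p = 0.0137). Kr-h1 averaged 10.26 at L3, 3.79 at P6 and 3.30 at P20.

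Of 15 ecdysone-induced effector genes, 6 fell and 0 rose, a share of 40.0% lower. ImpL1, an ecdysone-inducible gene of imaginal discs, read 9.16, 9.06, 8.93 and 9.35 at P20, against 12.91, 13.26, 13.30 and 13.35 at P6. The gap between the groups was several times the spread within either, with a difference of -4.08 ± 0.15 (SE), adjusted p = 2.77e-15. Cyp18a1, the hydroxylase that inactivates ecdysteroids, averaged 6.17 ± 0.27 at P20 and 9.66 ± 0.47 at P6 and fell by 3.49 (adjusted p = 2.47e-09). Sb, the Stubble transmembrane protease required for disc eversion, averaged 7.64 ± 0.08 at P20 and 10.53 ± 0.14 at P6 and fell by 2.89 (adjusted p = 2.88e-10). ImpE3 fell by 2.54 and the pupal cuticle gene Edg78E by 4.25, whereas ImpE2, whose product acts in appendage eversion, averaged 13.23 ± 0.06 at P20 and 13.19 ± 0.07 at P6 and did not pass (adjusted p = 0.888).

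**Figure D2:**
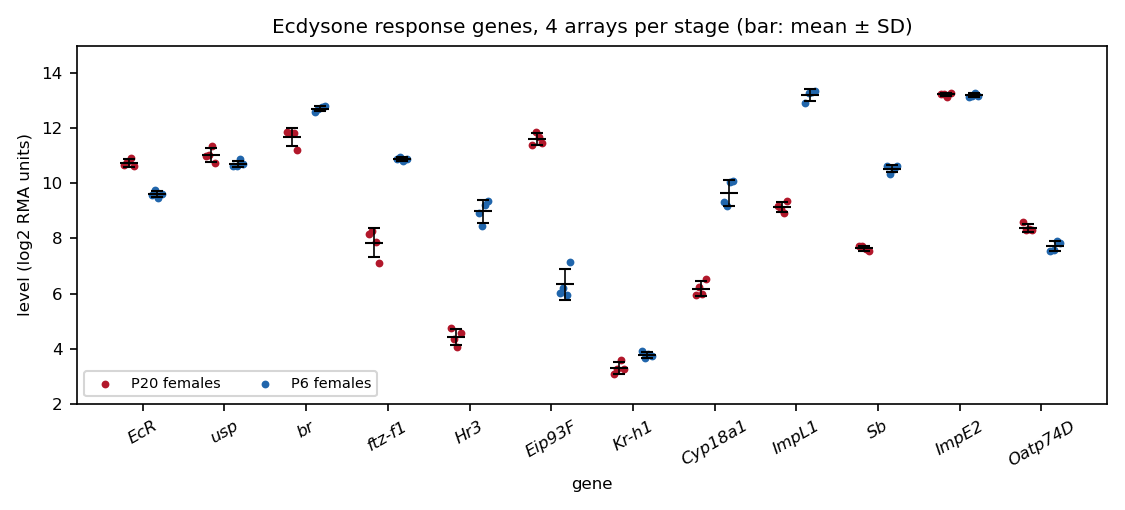
Levels of 12 ecdysone response genes in log2 RMA units, 1 point per array, with P20 females in red left of P6 females in blue, and bars for the mean ± SD of 4 arrays. Eip93F and EcR lie higher at P20, Hr3, ftz-f1, Cyp18a1, ImpL1 and Sb lie lower, and the points of usp and ImpE2 overlap between stages.

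Osiris genes made up 6 of the 12 largest decreases among genes known by name. The Osiris genes encode insect-specific membrane proteins of cuticle-forming epithelia and trachea, most of them in 1 cluster on chromosome arm 3R. Of 24 measured, 13 were lower at P20 and 0 higher (54.2% lower), and 12 had means under 5 at both stages. Osi14 read 6.69, 6.57, 5.98 and 6.56 at P20, against 13.32, 13.36, 13.31 and 13.39 at P6, a difference of -6.89 ± 0.29 (SE), adjusted p = 1.95e-14. Osi7 read 5.27, 5.18, 5.13 and 5.20 at P20, against 12.02, 12.04, 11.72 and 12.05 at P6, a difference of -6.76 ± 0.23 (SE), adjusted p = 6.31e-16. In both genes the P20 arrays lay more than 4 log2 units below the P6 arrays. Osi6, Osi5, Osi9, Osi2 and Osi17 fell by 6.67, 6.55, 6.22, 6.09 and 5.79. Osi15, Osi8, Osi24, Osi13 and Osi18 fell by 4.49, 3.39, 2.74, 1.87 and 0.90. Osi20 fell by 1.54 (adjusted p = 0.0308), and its call was lost without any of 5 single arrays (adjusted p up to 0.151, with a change of -0.86, without P6 replicate 1) and in the fit to the 8 female arrays alone (adjusted p = 0.076).

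The decreases did not follow the cluster in order. Osi5 to Osi9 formed an unbroken run of 5 neighbouring genes lower by 2-fold or more, as did the 3 genes Osi13 to Osi15, whereas genes between them did not pass. Of the 24 Osiris genes, 12 had means under 5 at both stages, among them Osi18 and Osi20, which passed as lower. Osi21, which lies on arm 2L outside the cluster, averaged 4.14 ± 0.10 at P20 and 4.01 ± 0.09 at P6 and did not pass. At L3 the means of Osi14, Osi7 and Osi5 were 6.12, 5.00 and 3.63, close to those at P20.

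**Figure D3:**
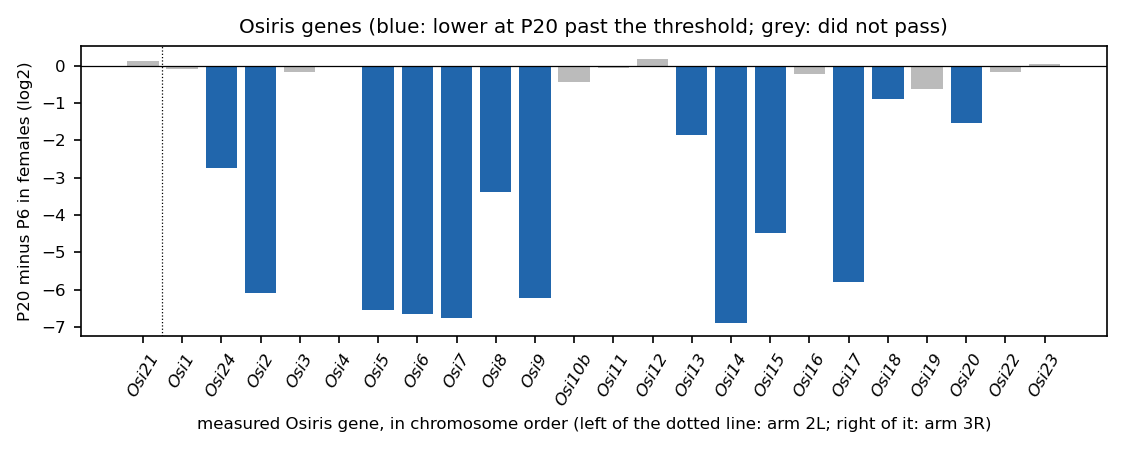
Log2 difference of P20 minus P6 in female discs for the 24 measured Osiris genes in the order in which they lie along the chromosome arms, 2L left and 3R right of the dotted line. Blue bars are the 13 genes lower at P20 past the threshold, which range from -0.90 to -6.89, and grey bars are the 11 that did not pass.

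The genes of zona pellucida domain proteins, which anchor epithelia to the apical matrix, changed in both directions, 7 of 14 higher and 3 lower. dyl (dusky-like) read 5.55, 4.28, 5.03 and 5.06 at P20, against 11.65, 11.71, 11.86 and 11.88 at P6, and fell by 6.79 (adjusted p = 1.51e-13). neo read 11.38, 11.09, 11.08 and 11.30 at P20, against 6.63, 7.06, 8.22 and 8.25 at P6, and rose by 3.67 (adjusted p = 2.73e-09). In neither gene did the stages overlap, and the directions were opposite. pio rose by 1.23 (adjusted p = 1.28e-06), with another of its probe sets not past the threshold (0.30, adjusted p = 0.218). dy, the dusky gene that gave its name to dyl, averaged 10.70 ± 0.27 at P20 and 11.62 ± 0.23 at P6 and did not pass (adjusted p = 0.0612), though in the fit to the 8 female arrays alone it did (adjusted p = 0.00153). With dim probe sets left out before the fit, 5 members of this group were lower.

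Of 29 chitin genes, 13 were lower (44.8%) and 2 higher. obst-E, a chitin-binding cuticle protein gene, read 5.22, 5.40, 4.92 and 5.50 at P20, against 11.90, 12.08, 11.18 and 11.54 at P6, a difference of -6.42 ± 0.38 (SE), adjusted p = 9.08e-12. The chitin deacetylase gene serp read 8.69, 8.51, 8.53 and 8.84 at P20, against 13.04, 13.04, 12.81 and 12.86 at P6, a difference of -4.30 ± 0.19 (SE), adjusted p = 4.51e-14. Its partner verm averaged 7.66 ± 0.20 at P20 and 12.52 ± 0.14 at P6 and fell by 4.87. These 3 genes, all with separate groups, were accompanied by the deacetylase gene Cda4 (-2.36), the chitinase-like growth factor gene Idgf4 (-1.94) and mmy (-1.80), which makes the chitin precursor UDP-N-acetylglucosamine. The probe sets of the chitinase gene Cht6 disagreed, at -2.98 on the one used and at -0.64 and 0.73 on the others, all past the threshold. The 2 that rose encode chitinases, Cht5 with 12.04 ± 0.27 at P20 and 10.02 ± 0.53 at P6 (2.02 ± 0.37 (SE), adjusted p = 0.000243), and Cht7 with a difference of 0.98 (adjusted p = 0.00147). serp and verm are also expressed in trachea, and the summed level of the 5 measured tracheal markers was 12.42 to 12.48 on P20 arrays and 12.81 to 13.004 on P6 arrays, with 3 members higher, Gasp lower and btl under 5. The part of tracheal cells in the result was not tested.

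Cuticle protein genes, most of them with the Rebers-Riddiford chitin-binding motif, changed in both directions at near equal numbers, 12 higher and 13 lower of 82 measured, of which 41 had means under 5 at both stages. The shares of 14.6% higher and 15.9% lower lie near those of all genes, but single changes were among the steepest measured. Cpr72Ea read 12.29, 12.43, 12.51 and 12.58 at P20, against 3.39, 3.18, 3.29 and 3.12 at P6, a difference of 9.21 ± 0.24 (SE), adjusted p = 7.3e-18. Its P6 mean of 3.25 lay near the 10th percentile of genes at P6 (3.21), so whether that signal exceeded background is not known and no fold is given. Lcp65Ad, a gene of the larval cuticle cluster, read 7.87, 9.15, 8.10 and 9.09 at P20, against 13.48, 13.52, 13.30 and 13.48 at P6, a difference of -4.89 ± 0.28 (SE), adjusted p = 5.51e-12. Neither pair of groups overlapped. Cpr97Ea rose by 4.22, Cpr62Bc by 4.07 and the pupal cuticle protein gene Pcp by 2.999, while Cpr66D fell by 5.79 and Cpr78Cc by 5.22.

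Of the 24 Tweedle genes, which encode another cuticle protein family, 5 were lower and 0 higher, and 16 had means under 5 at both stages. TwdlT read 6.93, 6.23, 7.67 and 6.80 at P20, against 13.10, 13.09, 12.79 and 12.96 at P6, with the groups far apart and a difference of -6.08 ± 0.35 (SE), adjusted p = 4.1e-12. TwdlE, at 11.39 ± 0.14 at P20 and 13.001 ± 0.10 at P6, fell by 1.61 (adjusted p = 1.76e-05). Among 18 tanning and pigment genes 6 were lower (33.3%) and 0 higher. yellow-e2, a relative of yellow, averaged 7.15 ± 0.20 at P20 and 9.50 ± 0.11 at P6 and fell by 2.35 (adjusted p = 1.97e-09). The oxidase gene Mco1 fell by 1.83, tan (t), a hydrolase gene of the pigment pathway, by 1.67, and yellow (y), needed for black melanin, by 1.06 with a P20 mean of 4.02.

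**Figure D4:**
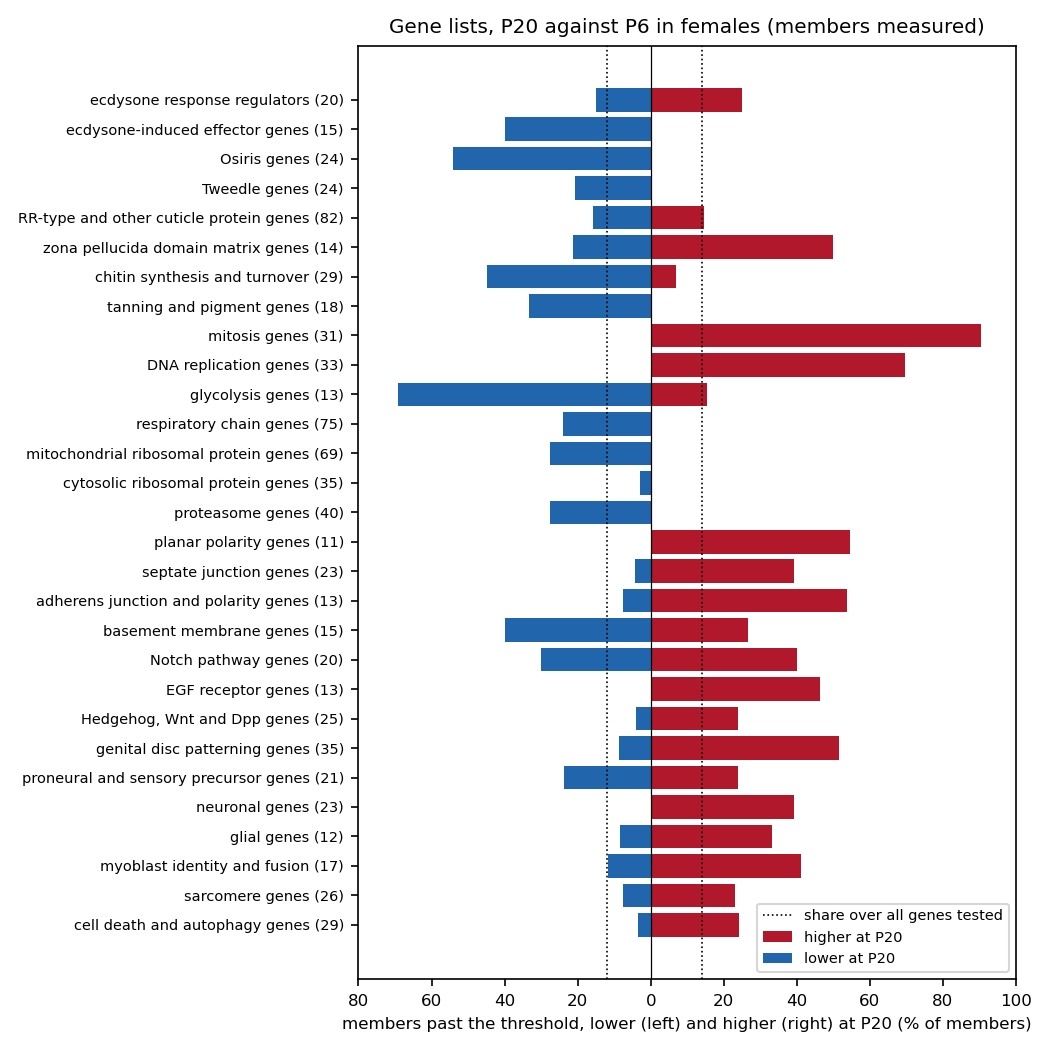
Share of the measured members of 29 gene groups that were higher (red, right) or lower (blue, left) at P20 past the threshold, in percent of members, with the number measured in brackets. Dotted lines mark the shares over all genes tested, 14.1% higher and 11.9% lower. Mitosis and DNA replication genes stand at 90.3% and 69.7% higher with 0 lower, and Osiris and glycolysis genes at 54.2% and 69.2% lower.

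Most genes of the cell division cycle rose, by moderate amounts. Of 31 mitosis genes 28 were higher (90.3%) and 0 lower, and of 33 DNA replication genes 23 were higher (69.7%) and 0 lower, with median changes of 0.79 and 0.55 against 0.04 over all genes. Fits without any single array left 26 to 28 mitosis and 17 to 23 replication genes higher. CycB, the mitotic cyclin gene, read 11.80, 11.89, 11.88 and 11.77 at P20, against 10.78, 10.78, 10.60 and 10.48 at P6. All P20 values lay above all P6 values, with a difference of 1.17 ± 0.13 (SE), adjusted p = 2.03e-07. CycE, the S phase cyclin gene, read 10.30, 10.47, 10.48 and 10.22 at P20, against 9.22, 9.18, 9.23 and 9.31 at P6, likewise without overlap and with a difference of 1.13 ± 0.12 (SE), adjusted p = 1.36e-07.

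Among the mitotic genes, the kinetochore gene Nuf2 rose by 1.55, the cytokinesis exchange factor gene pbl by 1.38 and its partner tum by 1.30. The condensin gene SMC2 rose by 1.25, the checkpoint genes mad2 and Mps1 by 1.19 and 1.15, and the kinase gene aurB by 1.14. In the replication group the ribonucleotide reductase gene RnrL rose by 0.82, the helicase subunit genes dpa and Mcm5 by 0.79 and 0.70, and PCNA, the sliding clamp gene, by 0.69. Across the 3 stages SMC2 averaged 9.79 ± 0.11 at L3, 8.29 ± 0.15 at P6 and 9.54 ± 0.10 at P20. The prepupal value was the lowest of the 3 for SMC2, and likewise for CycE, with 9.99 at L3, 9.24 at P6 and 10.37 at P20.

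Decreases also reached energy metabolism. Of 13 glycolysis genes 9 fell (69.2%) and 2 rose. With arrays centred on their medians 7 fell, and without 1 array at a time 7 to 9. Ald1, which encodes aldolase, read 9.73, 9.85, 9.68 and 10.26 at P20, against 11.91, 12.11, 11.86 and 11.87 at P6. The stages were separate, with a difference of -2.06 ± 0.14 (SE), adjusted p = 1.05e-10, and a second probe set gave -1.54. The glycogen phosphorylase gene Glyp fell by 1.34, Tpi (triose phosphate isomerase) by 0.82 and Pfk (phosphofructokinase) by 0.80, while the hexokinase gene Hex-A rose by 0.94 (adjusted p = 0.011). Decreases were smaller in the mitochondrial ribosome, where 19 of 69 genes fell (mRpS2 by 0.86), in the respiratory chain, where 18 of 75 fell (ND-19 of complex I by 0.84 and levy of complex IV by 0.84), and in the proteasome, where 11 of 40 fell (Rpt4 by 0.52 and Rpn8 by 0.52), with 0 higher in the 3 groups. Means were under 5 at both stages for 19 of the 75 respiratory chain and 12 of the 40 proteasome genes. The 3 counts of genes that fell depended on scaling and on single arrays. With arrays centred on their medians they were 10, 7 and 6, when 1227 of all 11982 genes were lower. Whether those centred counts exceed the share of all genes was not tested. Without 1 array at a time the 3 counts ran from 6 to 32, from 10 to 24 and from 5 to 14. The lowest counts came without P20 replicate 1, P20 replicate 2 or 3, and P20 replicate 3 in that order. The highest came without P20 replicate 4 in each. Of 35 cytosolic ribosomal protein genes, 1 fell and the median was 0.00.

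Transcription factor genes that pattern discs and appendages included many that rose. Of 35 measured, 18 were higher (51.4%), 3 lower and 14 did not pass. lov, a BTB-domain gene, read 7.76, 7.29, 7.62 and 7.33 at P20, against 3.38, 2.71, 4.13 and 4.29 at P6. The nuclear receptor gene eg read 8.32, 8.46, 9.00 and 8.89 at P20, against 5.26, 5.13, 5.84 and 5.66 at P6. dac, the dachshund gene of appendage and genital patterning, read 10.71, 10.05, 9.99 and 9.96 at P20, against 7.75, 7.67, 7.84 and 8.04 at P6. In all 3 genes every P20 array lay above every P6 array, with differences of 3.87, 3.20 and 2.35 (adjusted p = 4.68e-08, 5.35e-08 and 6.16e-10).

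The LIM-homeobox gene ap rose by 1.98 (another probe set gave 0.53, adjusted p = 0.0757), the wing and muscle regulator vg by 1.68, bab1 by 1.67, the Hox gene Dfd by 1.53 and the zinc finger gene tsh by 0.92. Dll, which marks appendage primordia, rose by 0.69 (adjusted p = 0.03) on the probe set used, but 2 others did not pass (0.16 and 0.26) and the call was lost without any of 5 single arrays (adjusted p up to 0.152, with a change of 0.45, without P20 replicate 1), in the fit to the 8 female arrays alone (adjusted p = 0.0927) and with probe sets averaged (adjusted p = 0.0985). The 3 that fell were the Pax gene gsb (-1.91), drm of the odd-skipped family (-0.93) and esg itself, the Snail-family gene whose driver labels the discs in all groups. esg read 9.71, 9.58, 9.95 and 9.38 at P20, against 10.90, 11.04, 11.23 and 10.98 at P6, without overlap and with a difference of -1.38 ± 0.13 (SE), adjusted p = 1.3e-08. en, which marks posterior compartments, averaged 9.40 ± 0.15 at P20 and 9.31 ± 0.08 at P6 and did not pass. dsx, the switch between female and male development, averaged 10.43 ± 0.31 at P20 and 10.16 ± 0.07 at P6 and did not pass (adjusted p = 0.205), except without P20 replicate 4 (adjusted p = 0.0487). lz, the Runx gene needed for spermathecae, averaged 10.68 ± 0.32 at P20 and 9.77 ± 0.12 at P6. Its difference of 0.91 did not pass over 24 arrays (adjusted p = 0.0739) and passed in the fit to the 8 female arrays alone (adjusted p = 0.00124).

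Of 10 measured genes of spermathecae and glands, 5 rose and 1, ftz-f1, fell. sr, the Stripe factor gene of tendon cells, averaged 6.56 ± 0.30 at P20 and 4.49 ± 0.13 at P6 and rose by 2.08 (adjusted p = 6.83e-06), and Gld, which encodes glucose dehydrogenase of the female sperm-storage organs, rose by 1.70 (adjusted p = 0.000815). Among 14 sex determination and dosage compensation genes 5 rose and 0 fell, among them msl-1 (1.09), of the dosage compensation complex, and tra (0.50), the female-determining splicing factor gene.

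The Notch pathway changed in both directions, with 8 of 20 genes higher and 6 lower. neur, the ubiquitin ligase gene that activates Notch ligands, read 10.34, 10.48, 10.52 and 10.24 at P20, against 8.51, 8.56, 8.50 and 8.67 at P6, and rose by 1.84 (adjusted p = 3.07e-11). E(spl)m4-BFM, a Bearded-family target of Notch, read 7.09, 6.78, 6.74 and 7.70 at P20, against 9.83, 10.27, 9.98 and 9.76 at P6, and fell by 2.88 (adjusted p = 4.09e-10). The stages did not overlap in either gene. Members of the E(spl) and Bearded complexes went apart, E(spl)m2-BFM (-1.89), E(spl)m5-HLH (-1.21) and Brd (-1.13) downwards and E(spl)m6-BFM (1.56) and Ocho (1.41) upwards. The receptor-cleaving protease gene kuz rose by 0.76.

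Of 13 EGF receptor genes 6 rose (46.2%) and 0 fell, including the feedback inhibitor gene sty (Sprouty, 1.28; another probe set gave 0.77, adjusted p = 0.142), the ligand chaperone gene S (Star, 1.04) and the adaptor gene drk (1.03). Among 25 Hedgehog, Wnt and Dpp genes 6 rose and 1 fell. The 1 that fell, the ligand gene Wnt6, read 7.48, 7.21, 6.61 and 7.02 at P20, against 9.48, 9.56, 9.50 and 9.56 at P6, with separate groups and a difference of -2.45 ± 0.17 (SE), adjusted p = 2.03e-10. The T-box gene bi rose by 0.68, and the BMP ligand gene dpp by 0.45 (adjusted p = 0.0164), a call lost without P20 replicate 2 or P6 replicate 1 (adjusted p = 0.0768 and 0.079). Several members of these pathways, among them vn, rho, rl, wg, fz2 and brk, have no probe set of their own and were not analysed here.

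Most calls among planar polarity and junction genes were increases. Of 11 planar polarity genes, which orient cells and hairs within the sheet, 6 rose (54.5%) and 0 fell. They included in (inturned, 1.22), the palmitoyltransferase gene app (1.08; another probe set gave 0.01, adjusted p = 0.975), the kinase gene fj (0.86), the core gene Vang (0.74) and the cadherin gene stan (0.66). The polarity genes fz, dsh, pk and ft have no probe set of their own and were not analysed here. Of 23 septate junction genes 9 rose (39.1%) and 1 fell, and 6 to 10 rose without 1 array at a time. scrib read 10.60, 10.52, 10.55 and 10.47 at P20, against 9.18, 9.22, 9.07 and 9.32 at P6, a difference of 1.34 ± 0.23 (SE), adjusted p = 0.00012, and 3 of its 4 other probe sets rose by 0.81 to 0.86. dlg1 rose by 0.81 on the probe set used, with 3 others not past the threshold, and Lac, which encodes Lachesin, by 0.74. Of 13 adherens junction and polarity genes 7 rose (53.8%) and 1 fell, and 5 to 7 rose without 1 array at a time. The increases were led by the cadherin gene Cad86C (1.21) and the apical determinant gene crb (1.17). Its partner sdt rose by 0.98 on the probe set used, and none of 5 others passed.

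Basement membrane genes changed in both directions, 6 of 15 lower and 4 higher. vkg and Col4a1 encode the chains of collagen IV. vkg read 8.21, 7.75, 7.45 and 7.42 at P20, against 10.71, 10.88, 10.96 and 10.77 at P6, a difference of -3.13 ± 0.26 (SE), adjusted p = 3.14e-09. Col4a1 read 8.76, 8.73, 7.81 and 7.97 at P20, against 10.90, 11.21, 11.20 and 11.23 at P6, a difference of -2.82 ± 0.29 (SE), adjusted p = 1.02e-07. Both genes had P20 values below all P6 values. The integrin ligand gene Tig fell by 1.77 (adjusted p = 0.00227) and the perlecan gene trol by 0.86 (adjusted p = 0.0423), a call lost without any 1 of the 8 arrays (adjusted p = 0.0618 to 0.107), and 6 of its 7 other probe sets did not pass. The papilin gene Ppn read 11.81, 11.78, 11.83 and 11.36 at P20, against 9.68, 9.52, 9.98 and 9.74 at P6, and rose by 1.97 (adjusted p = 8.76e-10), and the multiplexin gene Mp rose by 1.19, with another probe set at -0.08. Without P20 replicate 3, P20 replicate 4, P6 replicate 3 or P6 replicate 4, 3 members of the group were lower. Blood cells and fat body also make collagen IV. The 10 hemocyte markers summed to 11.14 to 11.72 on P20 arrays and 11.16 to 11.46 on P6 arrays, with Hml, eater and PPO1 under 5, He lower by 3.12 and crq higher, and their part and that of the fat body markers given above were not tested.

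Muscle precursor genes included several that rose. Of 17 myoblast identity and fusion genes 7 were higher (41.2%) and 2 lower. lmd, the zinc finger gene of fusion-competent myoblasts, read 9.60, 9.43, 9.48 and 9.83 at P20, against 5.26, 5.61, 4.51 and 5.01 at P6. No P6 array came near the P20 values, and the difference was 4.49 ± 0.19 (SE), adjusted p = 2.22e-14. The fusion receptor genes sns and hbs rose by 2.04 and 1.76, Him, which keeps muscle precursors undifferentiated, by 1.52 and nau, the fly MyoD gene, by 1.25. The FGF receptor gene htl fell by 0.84, and twi, which marks adult muscle precursors, averaged 8.75 ± 0.18 at P20 and 9.32 ± 0.21 at P6 and did not pass (adjusted p = 0.129), although it did in the fit to the 8 female arrays alone (adjusted p = 0.00906). Of 26 sarcomere genes 6 rose and 2 fell. The myosin light chain gene Mlc2 rose by 1.71 and the actin gene Act87E by 1.05, while the projectin gene bt fell by 1.72 and Strn-Mlck by 1.91, with 2 other probe sets of Strn-Mlck not past the threshold. The 7 muscle and myoblast markers, of which Mlc2 was higher and Act88F and up were under 5 at both stages, summed to 9.44 to 9.91 on P20 arrays and 9.63 to 9.99 on P6 arrays.

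Of 23 neuronal genes 9 were higher (39.1%), 0 lower and 14 did not pass. Without 1 array at a time, 6 to 9 were higher. futsch, the microtubule-associated protein gene of axons, read 11.73, 11.89, 11.32 and 11.03 at P20, against 8.96, 9.50, 9.11 and 9.25 at P6, a difference of 2.29 ± 0.30 (SE), adjusted p = 3.11e-06 on its brightest probe set, while 2 dim ones gave 0.13 each. elav, the pan-neuronal RNA-binding protein gene, read 8.90, 9.01, 8.29 and 8.84 at P20, against 7.54, 7.38, 7.36 and 7.60 at P6, a difference of 1.29 ± 0.29 (SE), adjusted p = 0.00163. The stages did not overlap in either gene, and the summed level of the 6 neuron markers was 11.40 to 12.13 on P20 arrays, against 9.68 to 10.001 on P6 arrays. futsch and elav, both given above, were the 2 of the 6 that passed, futsch carries most of the sum, and cac was under 5. Rbp9, a relative of elav, rose by 2.10 with another probe set at 0.11. With dim probe sets left out 5 neuronal genes were higher.

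Among 12 glial genes 4 rose and 1 fell. repo, the homeobox gene that defines glia, read 10.07, 10.20, 10.19 and 9.92 at P20, against 7.26, 5.06, 7.90 and 5.66 at P6, a difference of 3.62 ± 0.48 (SE), adjusted p = 3.91e-06. The P6 arrays spread over more than 2 log2 units, and none reached the P20 values. wrapper, an immunoglobulin-domain gene of glia that wrap axons, rose by 2.89, gcm, the glial switch gene, by 2.61 and moody, a receptor gene of the glial barrier, by 0.95. The 1 that fell was nrv2. The P6 values of gcm lay near the 10th percentile of genes at P6 (3.21), so whether that signal exceeded background is not known. The 7 glia markers summed to 12.18 to 12.37 on P20 arrays, against 11.84 to 12.14 on P6 arrays, with 4 of 7 higher, 1 lower and alrm under 5 at both stages. The part of the numbers of neurons and glia in these results was not tested.

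Of 21 proneural and sensory precursor genes 5 fell and 5 rose. The 5 that fell comprised the proneural genes ac (-2.13), sc (-1.99), l(1)sc (-2.50) and ato (-2.87), which select sensory mother cells, and phyl (-2.42), which acts just downstream of them. sc read 8.70, 8.44, 8.33 and 8.72 at P20, against 10.63, 10.54, 10.60 and 10.40 at P6, and ato read 3.71, 3.52, 4.14 and 3.48 at P20, against 6.36, 6.56, 6.78 and 6.65 at P6. The P20 arrays lay below the P6 arrays in both. y, ac, sc and l(1)sc lie next to each other on the X chromosome, and with CG32816 they formed an unbroken run of 5 measured neighbours lower by 2-fold or more. Those that rose included neur and pros, a homeobox gene of dividing precursors (1.45, adjusted p = 0.0102, and 0.0508 or 0.0504 without P20 replicate 1 or P6 replicate 3).

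Secreted carriers and surface receptors included some of the steepest changes. In the family of juvenile hormone binding protein-like genes (Jhbp), 3 of 12 rose and 1 fell. Jhbp7 read 12.52, 12.52, 12.83 and 12.60 at P20, against 3.79, 3.71, 4.13 and 4.24 at P6, a difference of 8.65 ± 0.42 (SE), adjusted p = 2.43e-13. Jhbp4 read 3.68, 4.32, 3.56 and 4.32 at P20, against 12.14, 12.29, 11.92 and 11.68 at P6, a difference of -8.04 ± 0.36 (SE), adjusted p = 5.25e-14. Each of the 2 genes was high at the stage at which the other was low. By stage, Jhbp7 averaged 10.61 at L3, 3.97 at P6 and 12.62 at P20, and Jhbp4 averaged 3.89 at L3, 12.01 at P6 and 3.97 at P20. Jhbp3 and Jhbp1 rose by 1.34 and 1.27.

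Of 47 odorant-binding protein genes, a family of secreted carriers of small molecules, 7 rose (14.9%) and 3 fell (6.38%). Means were under 5 at both stages for 30 of them. The share that rose lay near that of all genes (14.1%), and the share that fell lay below that of all genes (11.9%). Obp56a read 13.53, 13.43, 13.62 and 13.75 at P20, against 5.31, 4.22, 7.30 and 5.74 at P6, a difference of 7.94 ± 0.54 (SE), adjusted p = 8.7e-11. Obp99c rose by 2.33 and Obp83g fell by 2.31. Among 51 genes of the dpr, DIP, beat and side families, which encode immunoglobulin-domain recognition proteins, 5 rose (9.8%) and 1 fell (1.96%). Both shares lay under those of all genes. dpr10 read 7.99, 8.06, 7.65 and 7.75 at P20, against 4.06, 3.86, 3.91 and 3.88 at P6, a difference of 3.94 ± 0.16 (SE), adjusted p = 1.15e-14, and dpr17 and beat-IIa rose by 2.55 and 2.34.

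Several further genes with the largest increases had known roles. Qsox2, a sulfhydryl oxidase gene, averaged 10.67 ± 0.04 at P20 and 5.14 ± 0.30 at P6 and rose by 5.53. vri, the bZIP gene of the circadian clock and of hair growth, averaged 10.83 ± 0.24 at P20 and 6.31 ± 0.55 at P6 and rose by 4.52. osy, an ABC transporter gene, rose by 4.60 (another probe set by 1.53) and bip1, which encodes a partner of the bric-a-brac proteins, by 4.23. The neuropeptide gene Ms (myosuppressin) read 9.23, 10.13, 9.31 and 9.73 at P20, against 4.60, 4.43, 4.46 and 5.10 at P6, a difference of 4.95 ± 0.71 (SE), adjusted p = 1.14e-05. Ktch rose by 5.06 and the non-coding RNA gene pncr004:X by 7.25. The P6 mean of Ktch, 2.85, lay under the 10th percentile of genes at P6 (3.21), so whether that signal exceeded background is not known. On the falling side, slbo, the C/EBP transcription factor gene, read 4.13, 3.69, 3.72 and 3.89 at P20, against 10.05, 9.92, 10.34 and 10.29 at P6, a difference of -6.29 ± 0.17 (SE), adjusted p = 1.24e-17, and St4, a sulfotransferase gene, fell by 6.79. The alpha-tubulin gene alphaTub85E, alone among 9 tubulin genes past the threshold, rose by 2.97.

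Genes known by number made up 42 of the 69 genes higher by 8-fold or more and 90 of the 164 lower. The share of numbered genes among all genes tested was not computed, so these counts cannot be read as an excess. The steepest increases among them were CG34247 with 13.32 ± 0.03 at P20 and 4.46 ± 0.20 at P6, CG13053 with 13.24 ± 0.13 at P20 and 4.56 ± 0.15 at P6, and CG13857 and CG13023, which rose by 8.01 and 7.98. A second probe set of CG13023 rose by 0.44. CG13053 and CG34247 are neighbours on arm 3L and began a run of 4 genes higher by 2-fold or more. CG9083 read 4.29, 3.85, 3.34 and 4.04 at P20, against 12.90, 13.13, 12.65 and 12.93 at P6, the steepest decrease by difference at -9.03 ± 0.26 (SE), adjusted p = 3.46e-17. CG34115, CG32645 and CG9737 fell by 7.80, 7.32 and 7.28. Runs of 3 or more measured neighbours changed by 2-fold or more numbered 7 in the higher and 14 in the lower direction.

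Cell death and autophagy genes rose in part, 7 of 29 measured higher (24.1%) and 1 lower. The apoptosis genes rpr, hid, Diap1 and Drice have no probe set of their own and were not analysed here. The apoptosis activator gene grim read 6.54, 6.84, 7.21 and 6.12 at P20, against 4.96, 4.55, 4.32 and 5.05 at P6, without overlap and with a difference of 1.96 ± 0.23 (SE), adjusted p = 6.76e-07. The initiator caspase gene Dronc rose by 0.78 and Atg7 by 0.96, and the caspase inhibitor gene Diap2 fell by 0.51. The antimicrobial peptide gene Def read 10.37, 10.46, 10.45 and 10.43 at P20, against 6.41, 11.18, 6.69 and 6.12 at P6. P6 replicate 2 lay above every P20 array while the other P6 arrays lay far below, and the difference of 2.83 passed (adjusted p = 0.00583), or 4.02 without that array. l(2)efl, a small heat shock protein gene, rose by 2.31 on the probe set used and by 2.23 on a second, with a dim one at -0.23. NimC2, a phagocytic receptor gene, averaged 7.82 ± 0.30 at P20 and 4.31 ± 0.65 at P6 and rose by 3.51 (adjusted p = 9.94e-05).

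Whether the change differed from that of male discs was tested as a difference in change, the female P20 minus P6 value less the male one, in the same limma fit. In male discs 3038 genes passed (25.4%), 1552 higher and 1486 lower. The sexes shared 1174 higher genes, 69.5% of the female and 75.6% of the male calls, and 1097 lower genes, 76.7% of the female and 73.8% of the male calls. The difference in change passed for 136 genes (1.14%), with the female change above the male for 59 (0.492%) and below for 77 (0.643%). Germline and gonad markers differed by sex, the 9 of them summing to 7.32 to 7.46 on P20 and 7.27 to 8.02 on P6 female arrays, against 8.49 to 10.73 on P20 and 8.58 to 10.82 on P6 male arrays. Their part in the difference was not tested, and without male P6 replicate 3 the counts were 52 and 61.

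The glial switch gene gcm had the largest difference in change among the genes named. It read 5.41, 5.21, 5.01 and 6.59 on P20 and 2.85, 2.69, 2.95 and 3.27 on P6 female arrays. In males it read 5.39, 5.54, 5.74 and 5.45 at P20, against 8.48, 8.56, 8.23 and 8.45 at P6. Thus gcm rose by 2.61 in females and fell by 2.90 in males, and the difference in change was 5.51 ± 0.33 (SE), adjusted p = 3.2e-10. The patterning genes dac, eg and lov, which rose in females, did not pass in males, with male changes of 0.16, -0.79 and 0.29 and differences in change of 2.19 ± 0.25 (SE), adjusted p = 1.49e-05, of 3.99 ± 0.45 (SE), adjusted p = 1.28e-05 and of 3.59 ± 0.54 (SE), adjusted p = 0.000415. dac averaged 10.18 ± 0.36 at P20 and 7.83 ± 0.16 at P6 in females, against 9.70 ± 0.18 at P20 and 9.54 ± 0.11 at P6 in males, so that the female P6 arrays were the low ones. nau, the MyoD gene, rose in females and gave -0.30 in males, a difference in change of 1.54 (adjusted p = 0.00472).

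The proneural genes fell in females and did not fall in males. l(1)sc changed by -2.50 in females and 0.72 in males, a difference in change of -3.22 ± 0.28 (SE), adjusted p = 3.02e-07. For ato, sc and ac the male changes were -0.10, -0.09 and 0.03, none past the threshold, and the differences in change were -2.77, -1.90 and -2.17 (adjusted p = 0.000183, 0.000973 and 0.00136). In males ato was low at both stages, at 3.45 ± 0.38 at P20 and 3.55 ± 0.13 at P6, against 6.59 at P6 in females. Its unchanged male value is thus not a level kept up, whereas ac averaged 8.82 at P20 and 8.79 at P6 in males. y, their neighbour, fell by 1.06 in females and rose by 1.01 in males (difference in change -2.06, adjusted p = 5.14e-05). All 4 neighbours thus had a female change below the male one. Wnt6 fell more in females (-1.56, adjusted p = 0.000744), and unpg, a homeobox gene, fell by 2.25 in females and gave -0.03 in males (-2.22, adjusted p = 4.05e-06).

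Cuticle and matrix genes differed in both senses. Cpr62Bc averaged 9.75 ± 0.24 at P20 and 5.68 ± 0.28 at P6 in females, and 6.46 ± 0.57 at P20 and 5.36 ± 0.17 at P6 in males, a difference in change of 2.97 ± 0.32 (SE), adjusted p = 9.45e-06. Pcp rose in females and gave -0.13 in males (3.13, adjusted p = 0.000138). Cpr35B fell by 0.96 in females and by 2.84 in males (1.87, adjusted p = 4.26e-05), and Cpr66Cb rose by 1.70 in females (1.87, adjusted p = 0.00961). On the other side Cpr66D had -3.32 ± 0.41 (SE), adjusted p = 4.08e-05, and Cpr92F, at 0.09 in females and 1.93 in males, had -1.84 ± 0.23 (SE), adjusted p = 4.08e-05. dy, high at both female stages, fell by 3.91 in males (2.99, adjusted p = 0.00133). Of the 82 cuticle protein genes, 5 passed above and 4 below. The laminin gene wb rose by 0.86 in females and fell by 0.54 in males (1.41, adjusted p = 6.73e-05), with 2 other probe sets not past the threshold for the female change or the difference. The thrombospondin gene Tsp fell by 1.31 in females and gave 0.35 in males (-1.67, adjusted p = 1.28e-05), and its second probe set gave -1.51.

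Pxd, a peroxidase gene, read 4.62, 4.44, 4.16 and 4.70 on P20 and 9.06, 8.97, 8.64 and 8.78 on P6 female arrays. In males it averaged 4.91 ± 0.60 at P20 and 5.30 ± 0.35 at P6, and the difference in change was -3.99 ± 0.52 (SE), adjusted p = 7.25e-05, with -5.07 on a second probe set. prt, which encodes a vesicular transporter, averaged 2.84 ± 0.20 at P20 and 2.52 ± 0.08 at P6 in females and 6.44 ± 0.37 at P20 and 2.54 ± 0.08 at P6 in males, a difference in change of -3.58 ± 0.21 (SE), adjusted p = 2.67e-10. Both female means of prt lay under the 10th percentile of genes in females (3.28 at P20 and 3.21 at P6), so whether that signal exceeded background is not known. The protease homologue gene scaf and the amylase relative Amyrel had differences in change of -1.68 and -2.07, scaf rising in males by 1.85 and Amyrel by 1.23. The Snail gene sna (1.67), dpr17 (2.75) and the elongase gene bond (2.65) lay on the female-higher side, with adjusted p = 0.000118, 0.000144 and 0.000183. In females bond itself rose by 0.73 (adjusted p = 0.0443), a call lost without any 1 array other than P20 replicate 2 (adjusted p up to 0.184, with a change of 0.47, without P20 replicate 4) and in the fit to the 8 female arrays alone (adjusted p = 0.0597). CG13053 rose in both sexes and by 3.27 more in females (adjusted p = 3.02e-07). Its means were close at P20, 13.24 in females and 13.32 in males, and apart at P6, 4.56 in females and 7.91 in males. By contrast the differences for Eip93F, Hr3, ftz-f1, EcR and the 13 Osiris genes lower at P20 did not pass, at 0.80, -0.24, -0.04 and 0.03 for the first 4. Of the 24 Osiris genes 1 passed, Osi1, with a difference in change of 1.68 (adjusted p = 0.00129), a female change of -0.10 that did not pass and a male change of -1.78.

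**Figure D5:**
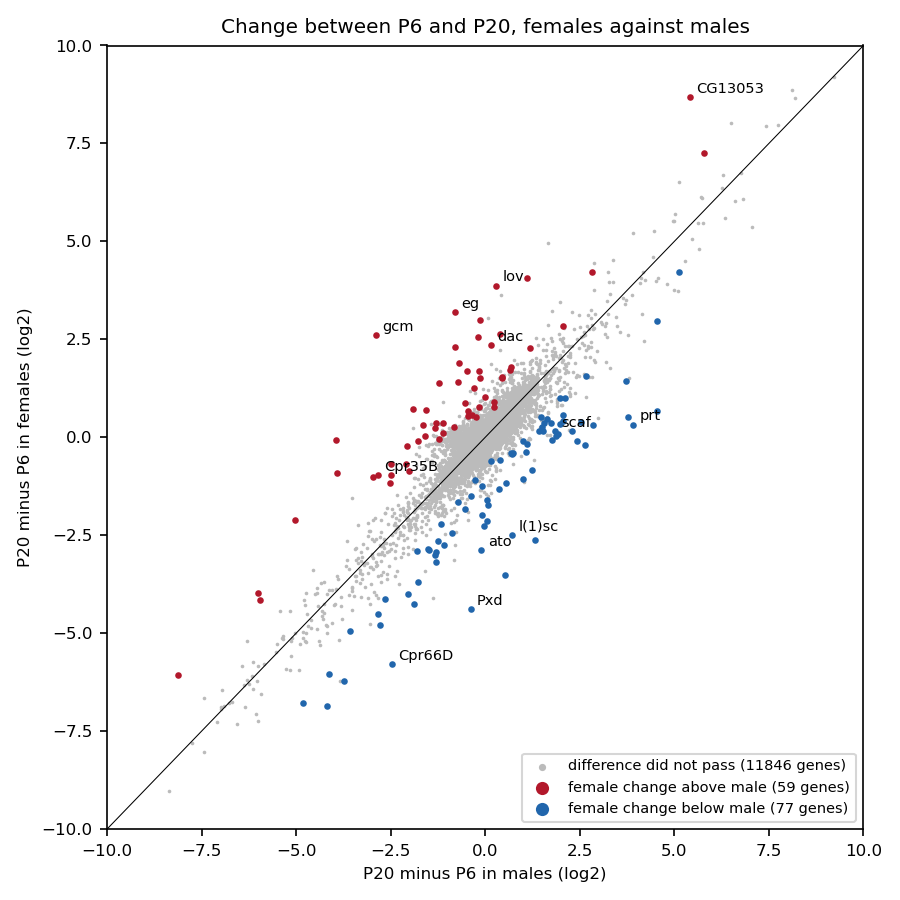
Log2 difference of P20 minus P6 in female discs (vertical axis) against the same in male discs (horizontal axis) for 11982 genes; the line marks equal change. Red points are the 59 genes with a female change above the male past the threshold and blue points the 77 below it, while the grey points of the other genes lie mostly along the line. gcm sits in the upper left, higher at P20 in females and lower in males, and Pxd sits low near a male change of 0.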

How the data were processed

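Drosophila genital discs were measured on 24 Affymetrix arrays, in 6 groups of 4 labelled as biological replicates, of which the 4 female P20 and 4 female P6 arrays carry the main comparison. The deposited values are log2 and were made by the authors with RMA, per the submitters' processing notes; the sources used here give neither its version nor its settings. RMA summarises the probes of a set after background correction and quantile normalisation, so a shift common to most genes would not be seen. Of 18952 probe sets, 183 controls, 402 with several genes and 4720 with none listed were left out, and 13647 with 1 gene remained, 13544 of them matched by gene ID to the Release 6 gene table with 0 symbols changed. A gene was read on its probe set of highest mean over the 24 arrays, and 1094 of 11982 genes had several.

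limma 3.58.1 in R 4.3.3 was fitted to all 24 arrays with 1 mean per group (18 residual degrees of freedom), two-sided, with Benjamini-Hochberg adjustment over the 13647 probe sets, and was tested on simulated data. The number of arrays limits the precision, and no detection call or scan batch is given. The p-values set each difference against the spread within groups, estimated from all 24 arrays, larval and male ones included. Genes named were the 12 largest non-overlapping changes in each direction and the 4 largest among numbered genes, up to 5 members of each list by adjusted p and others needed to describe it, the 10 strongest differences in change in each direction, and a set of hormone and disc regulators whatever their values. The members and lists were chosen with earlier results of these data known. Alternatives covered scaling, variance model, arrays in the fit, replicate block, a filter at 5 log2 units, the handling of probe sets, thresholds and leaving out each array. Same-numbered P20 and P6 arrays deviated together at correlations of 0.001, 0.048, 0.03 and -0.084, so the numbers were not taken as pairs.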

Additional observations from a re-analysis of the deposited data

Results flagged for a closer look

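In 25 of 404 groups of 4 female arrays, those of the genes named, 1 array lay far from the other 3, which were close together. Chance marks about 1 in 20 such groups. Of the 25, 6 concerned P20 replicate 4, 4 each P20 replicate 1, P6 replicate 2 and P6 replicate 3, 3 P20 replicate 3, 2 P20 replicate 2, and 1 each P6 replicate 1 and P6 replicate 4. 

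Cht5 read 12.45 on P20 replicate 3, with the other 3 at 11.87 to 11.94. E(spl)m6-BFM read 11.24 on P20 replicate 4, with the other 3 at 10.66 to 10.75. He read 5.85 on P20 replicate 1, with the other 3 at 5.19 to 5.23. Osi13 read 3.57 on P20 replicate 2, with the other 3 at 3.28 to 3.33. Pcp read 8.40 on P20 replicate 1, with the other 3 at 8.92 to 9.00. Ppn read 11.36 on P20 replicate 4, with the other 3 at 11.78 to 11.83. Rbp9 read 7.64 on P20 replicate 4, with the other 3 at 8.47 to 8.53. St4 read 3.96 on P20 replicate 1, with the other 3 at 4.45 to 4.51. Tig read 6.11 on P20 replicate 3, with the other 3 at 7.39 to 7.61. br read 11.20 on P20 replicate 4, with the other 3 at 11.82 to 11.86. dac read 10.71 on P20 replicate 1, with the other 3 at 9.96 to 10.05. dlg1 read 10.62 on P20 replicate 4, with the other 3 at 11.24 to 11.34. kuz read 10.81 on P20 replicate 2, with the other 3 at 10.52 to 10.57. sdt read 10.64 on P20 replicate 4, with the other 3 at 11.42 to 11.52. unpg read 3.78 on P20 replicate 3, with the other 3 at 4.08 to 4.12.

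Col4a1 read 10.90 on P6 replicate 1, with the other 3 at 11.20 to 11.23. Def read 11.18 on P6 replicate 2, with the other 3 at 6.12 to 6.69. E(spl)m2-BFM read 10.90 on P6 replicate 2, with the other 3 at 10.61 to 10.66. Hr78 read 9.48 on P6 replicate 2, with the other 3 at 9.77 to 9.80. Mps1 read 7.84 on P6 replicate 3, with the other 3 at 7.67 to 7.68. ND-19 read 10.17 on P6 replicate 4, with the other 3 at 9.92 to 9.96. Osi5 read 10.54 on P6 replicate 3, with the other 3 at 9.98 to 10.03. Osi7 read 11.72 on P6 replicate 3, with the other 3 at 12.02 to 12.05. aurB read 8.27 on P6 replicate 2, with the other 3 at 8.63 to 8.70. htl read 9.93 on P6 replicate 3, with the other 3 at 9.72 to 9.75. Apart from Def and ND-19, whose stages overlapped, the P20 arrays of these genes all lay on 1 side of the P6 arrays.

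For 35 of the genes named, the female and male changes differed past the threshold of the test of the difference. The female change lay above the male for gcm (5.51), eg (3.99), lov (3.59), CG13053 (3.27), Pcp (3.13), dy (2.99), Cpr62Bc (2.97), dpr17 (2.75), bond (2.65), dac (2.19), Cpr35B and Cpr66Cb (1.87 each), sna (1.67), nau (1.54) and wb (1.41), all described above. It also lay above for pncr004:X, which rose by 7.25 in females and 5.79 in males (difference 1.46, adjusted p = 0.0111), and for TwdlT, which fell by 6.08 in females and by 8.13 in males (difference 2.05, adjusted p = 0.041), a call lost without any 1 of 14 of the 16 arrays (adjusted p up to 0.116, without female P20 replicate 3) and with median centring (adjusted p = 0.112). The female change lay below the male for Pxd (-3.99), prt (-3.58), Cpr66D (-3.32), l(1)sc (-3.22), ato (-2.77), unpg (-2.22), ac (-2.17), Amyrel (-2.07), y (-2.06), sc (-1.90), Cpr92F (-1.84), scaf (-1.68), Tsp (-1.67) and Wnt6 (-1.56). It also lay below for dyl, which fell by 6.79 in females and by 4.81 in males (difference -1.98, adjusted p = 0.0291), a call lost without any 1 of 9 arrays (adjusted p up to 0.0766, without female P20 replicate 2), and for E(spl)m4-BFM, which fell by 2.88 in females and by 1.48 in males (difference -1.40, adjusted p = 0.0168), a call lost without female P20 replicate 3 (adjusted p = 0.0514) or P6 replicate 2 (adjusted p = 0.0513). alphaTub85E rose by 2.97 in females and 4.55 in males (difference -1.58, adjusted p = 0.00275), and Cpr97Ea by 4.22 in females and 5.12 in males (difference -0.89, adjusted p = 0.00536).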

How the results depend on the processing

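Against 1689 genes higher and 1430 lower at P20, the counts were 1606 and 1227 with arrays centred on their medians (56.7% of calls higher, against 54.2%, with the median gene at 0.08), 1704 and 1451 with a variance trend and robust moderation, 2042 and 1725 from the 8 female arrays alone, and 1604 and 1436 with dim probe sets left out. Testing 1 probe set per gene gave 1705 and 1449, and averaging all probe sets of each gene 1695 and 1446. Without 1 array at a time they ran from 1349 to 1633 and from 1184 to 1516. At an adjusted p under 0.01, 1093 genes were higher and 1005 lower. With a change of 2-fold or more as well as an adjusted p under 0.05, 517 were higher and 625 lower. Stricter thresholds require such lower counts. With the replicate number as a block the counts were 1776 and 1521, 42 calls being lost and 220 gained; the numbers were not taken as pairs, and among genes named the block ended the female call of bond and the difference in change of TwdlT and brought sna past the threshold. The difference in change passed for 46 to 70 genes above and 61 to 76 below without 1 array at a time, for 66 and 105 from the 16 female and male arrays alone and for 61 and 81 with the block. Of 237 values of named genes under these settings, 0 reversed direction, 63 of 3830 comparisons lost a call and 9 gained one. Besides those given with their gene, dy also passed with median centring (adjusted p = 0.0484) and with dim probe sets left out (adjusted p = 0.047), and sdt did not pass with probe sets averaged (adjusted p = 0.0749). Averaging probe sets also reduced the changes of Eip93F to 3.23, of ftz-f1 to -1.80 and of futsch to 0.85. Why the counts moved was not tested, beyond the fewer arrays or stricter thresholds of some settings. Signal over background is unknown for these arrays.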
